A study of Mus musculus with 6 samples.

Results

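The Notch receptors, their ligands and their effectors were taken here as 10 genes, Notch1, Notch2, Notch3, Notch4, Jag1, Jag2, Dll1, Hes1, Hey1 and Heyl. They were chosen by name, through the RefSeq accession of each non-control probe, and all 10 were found among the 20648 genes that had a named probe on the array after probes with an array lost to outlier flags were removed and passed the filter on dim probes. Their RNA was measured in spheres, free-floating cell clusters in serum-free medium, grown from the mammary tumors of FRS2beta heterozygous (hetero) or FRS2beta knockout mice, with 3 arrays per genotype. FRS2beta, encoded by Frs3, is an adaptor that docks on receptor tyrosine kinases. Both groups were cultured alike, in DMEM/F12 with B27, EGF (20 ng/mL), bFGF (20 ng/mL) and heparin (2 mg/mL). The strain, age, tumor-inducing transgene and the animals behind each replicate are not given in the sources used here, so each p-value covers only the spread among these arrays, and that spread may be technical. All 10 luminal and all 8 basal mammary markers listed were well above background on at least 1 array of each genotype. So were all 8 macrophage and all 8 fibroblast markers on the array, and 60.4 to 69.6% of all probes passed on each single array. Detection of these markers thus cannot check the labelled tissue.

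Notch receptors are single-pass membrane proteins that are activated by Jagged and Delta-like ligands on a neighbouring cell. Ligand pulling exposes the receptor to ADAM proteases and then to gamma-secretase, and the freed intracellular domain joins the DNA-binding protein RBPJ and a Mastermind co-activator to switch on genes such as those of the HES and HEY repressors. In the mammary gland this pathway is known for steering progenitor cells towards the luminal lineage, and Notch4 was found as the site of mammary tumor virus insertions.

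Of the 10 genes, 8 were higher and 1 was lower in knockout spheres, by limma across 15838 genes with Benjamini-Hochberg adjustment at 0.05. Over all genes tested, 27.8% were called higher, 32.6% lower and 60.4% in either direction. A rise of at least 2-fold was called for 6 of the 10 genes, against 6.59% of all genes. The 2 genotypes did not overlap in 9 of the 10, against 68.9% of all genes. The median log2 change was 1.30 over the 10 genes and -0.03 over all genes. With normexp background correction the median of the 10 genes was 0.87, and Jag2 changed by 0.66, which is less than 2-fold. The 10 genes were chosen with earlier results of these data known, so these shares and medians are no independent test of the set. All 3 ligands and all 3 effectors among the 10 rose, while the receptors split, 2 higher, 1 lower and 1 not called. Ligands and HES or HEY factors outside the 10 did not all rise. Of 5 tested genes for other ligands and ligand-like proteins 1 was higher and 3 were lower. Of 5 tested other HES, HEY and related factors 3 were higher and 1 was lower. Values below are scaled log2 signals, the log2 of the spot's processed intensity less the 75th percentile of its array, so 0 stands for that percentile. They are not compared between genes, since probes differ in brightness for the same amount of RNA. In a mixture of cells, fewer cells of a type and less RNA per cell cannot be told apart.

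**Figure D1:**
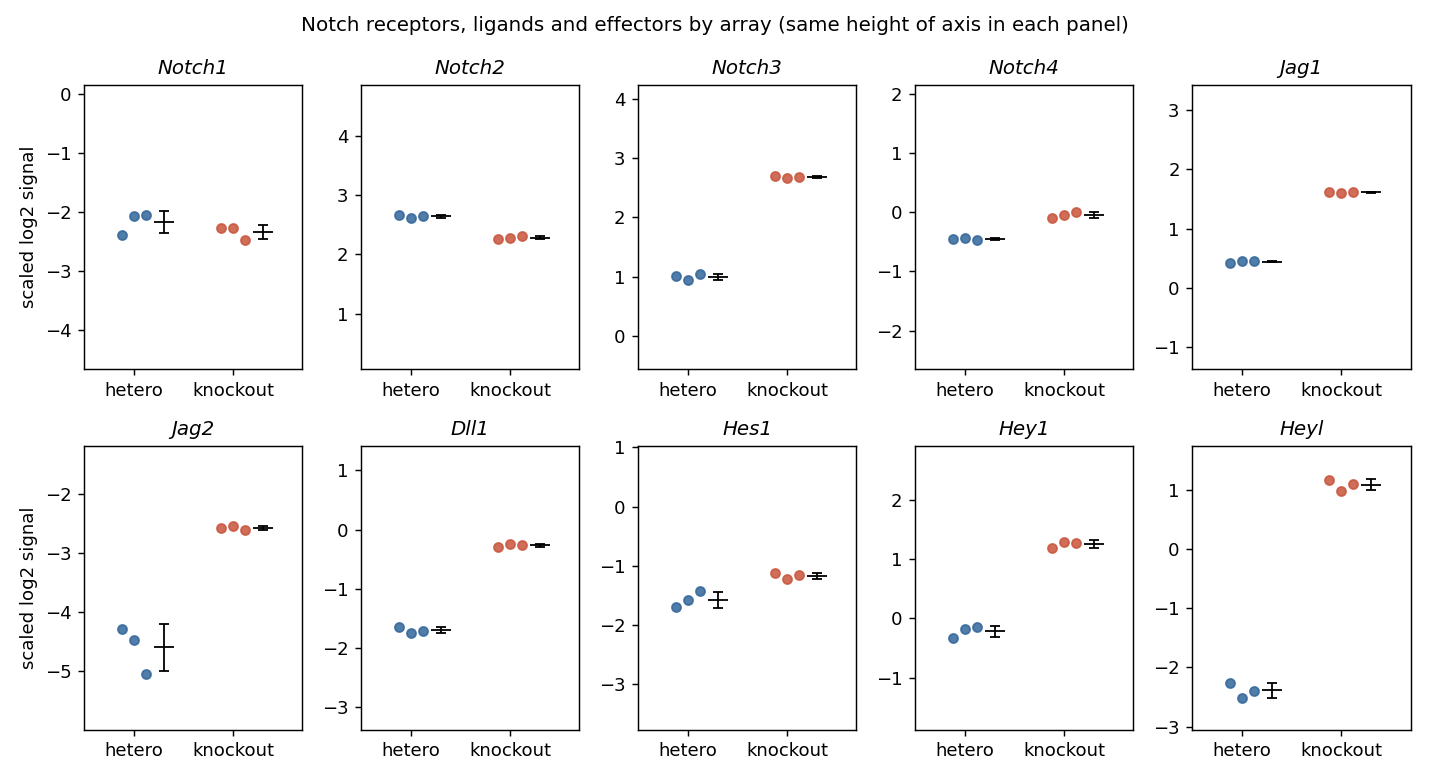
Scaled log2 signal of the 10 genes on each array, with 3 hetero arrays in blue, 3 knockout arrays in red, and the mean ± SD of each group in black. Every panel spans the same number of log2 units; the groups overlap for Notch1 alone, and the gap is widest for Heyl, from -2.39 to 1.09.

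**Figure D2:**
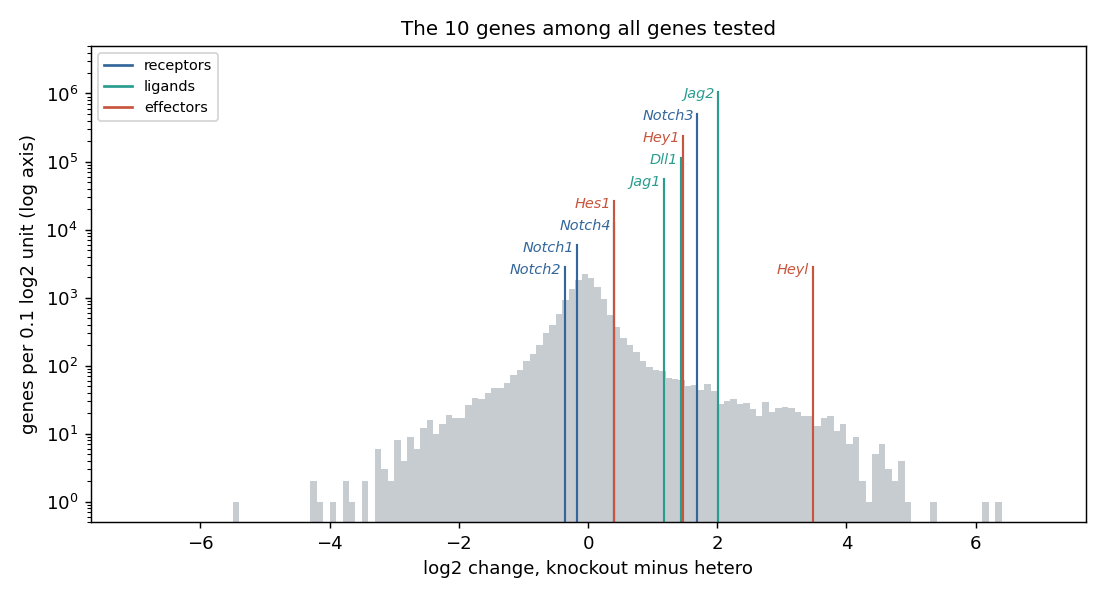
Histogram of the log2 change (knockout minus hetero) of the 15838 genes tested, on a log axis of gene number, with a line at each of the 10 genes whose height only makes room for its label (those of Notch4 and Hes1 coincide). Notch1 and Notch2 lie left of 0 (right of it with spike-in scaling), Notch4 and Hes1 at 0.41, and the other 6 genes between 1.17 and 3.47.

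Notch3, the receptor best known from vascular smooth muscle and also active in mammary progenitors, changed most among the receptors. Its signal was 1.02, 0.93 and 1.03 on the hetero arrays and 2.69, 2.67 and 2.69 on the knockout arrays (probe for NM_008716). All knockout arrays lay well above all hetero arrays. The log2 change was 1.69 ± 0.03 (SE, n = 3 each), a 3.22-fold rise (limma adjusted p = 1.32e-06), and 3.99% of all genes had a larger rise. Notch4 rose far less. It read -0.45, -0.44 and -0.47 in hetero and -0.10, -0.04 and 0.01 in knockout spheres (NM_010929). The groups were separate, with a change of 0.41 ± 0.04, or 1.32-fold (limma adjusted p = 0.00029).

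Notch2 was the one gene called lower. Its brighter probe (NM_010928) read 2.67, 2.61 and 2.65 in hetero and 2.27, 2.28 and 2.31 in knockout spheres, a change of -0.36 ± 0.03, or 1.28-fold lower (limma adjusted p = 0.000148). Each knockout array lay below each hetero array. The dimmer Notch2 probe gave a change of similar size, -0.31 ± 0.12, but its groups overlapped and it missed the threshold over the 35427 probes kept (limma adjusted p = 0.0913). The sign of the Notch2 change depended on the scaling. When arrays were scaled to their 238 detected spike-in spots, every log2 change moved up by 0.42, and Notch2 stood at 0.06 ± 0.03 (limma adjusted p = 0.138, from 1.5e-06 to 0.138 over all alternatives). With that scaling 11490 genes were called higher and 1260 lower, in place of 4403 and 5160, and the median of all genes was 0.39. Each rise and fall given here is thus relative to the other genes on the array.

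Notch1, the receptor with the broadest role in development, was the one gene with no call. The brighter probe (NM_008714) read -2.39, -2.06 and -2.05 in hetero and -2.26, -2.27 and -2.46 in knockout spheres. The groups overlapped, and the change of -0.17 ± 0.11 was not called (limma adjusted p = 0.258). Without hetero replicate 1, the lowest hetero array, it was -0.28 and called lower (limma adjusted p = 0.0354, and up to 0.53 over all alternatives). The dimmer probe for the same transcript was well above background on 0 of 3 hetero arrays and on 3 of 3 knockout arrays. It read -5.56, -5.15 and -5.54 in hetero and -4.48, -4.54 and -4.42 in knockout spheres, and with normexp background correction its change was 0.04. Since it passed the filter through the knockout arrays alone, no fold or test is given for it. Averaging both Notch1 probes gave 0.39 ± 0.10 and a call of higher (limma adjusted p = 0.0175, the lowest over all alternatives). That value rests on this dimmer probe and is no support for a rise.

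**Figure D3:**
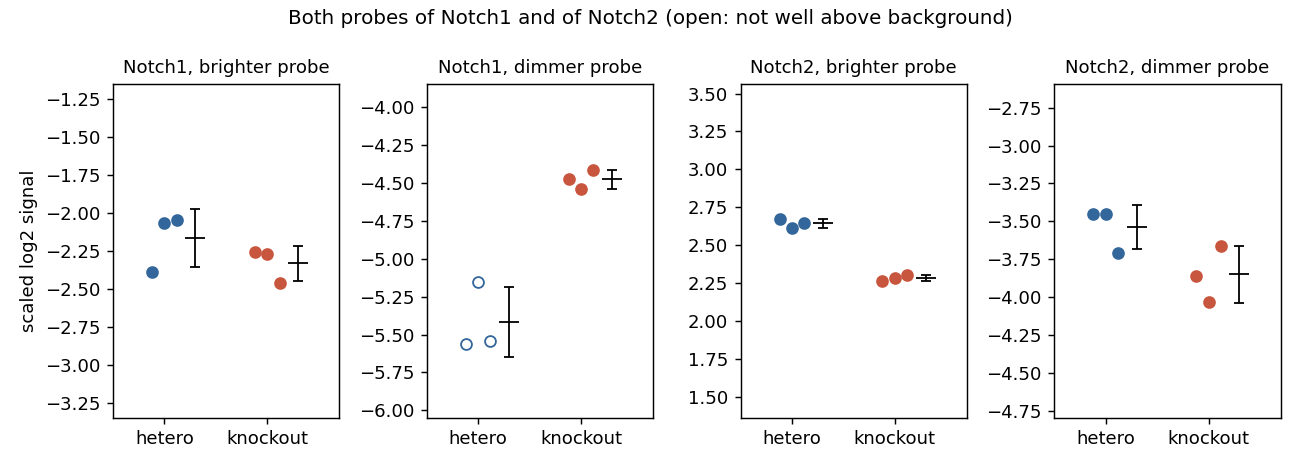
Scaled log2 signal of the brighter and the dimmer probe of Notch1 and of Notch2 on each array (3 hetero in blue, 3 knockout in red, mean ± SD in black; open circles are not well above background). The dimmer Notch1 probe has means of -5.42 and -4.48, the brighter one of -2.17 and -2.33, and the Notch2 probes read 2.64 and 2.29 (brighter; no longer lower with spike-in scaling) and -3.54 and -3.85 (dimmer).

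The 3 ligands among the 10 genes rose together. Jag1, a Jagged ligand of the mammary epithelium and stroma, read 0.43, 0.45 and 0.45 in hetero and 1.61, 1.60 and 1.63 in knockout spheres (NM_013822). The arrays of each genotype lay almost on top of each other, and the change was 1.17 ± 0.02, or 2.25-fold (limma adjusted p = 9.5e-07). The Delta-like ligand Dll1, which is found on basal cells of the gland, was spotted 10 times on each array (NM_007865). Averaged over spots it read -1.64, -1.74 and -1.72 in hetero and -0.29, -0.24 and -0.26 in knockout spheres, a change of 1.44 ± 0.03, or 2.71-fold (limma adjusted p = 2.2e-06). Its single spots had an SD of 0.10 to 0.11 within the hetero arrays and 0.03 to 0.05 within the knockout arrays, and the highest hetero spot, at -1.48, lay below the lowest knockout spot, at -0.36. Jag2, the second Jagged ligand, was dim. It read -4.28, -4.47 and -5.05 in hetero spheres, with 2 of 3 arrays well above background, and -2.59, -2.55 and -2.61 in knockout spheres (NM_010588). The groups were separate, with a change of 2.02 ± 0.20, or 4.05-fold (limma adjusted p = 0.000518). With normexp background correction, whose offset of 50 exceeds the hetero intensities of 12.6 to 21.2, the Jag2 change shrank to 0.66 ± 0.08 and stayed called.

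The effectors are transcriptional repressors of the basic helix-loop-helix class, and they rose by very different amounts. Heyl, a HEY factor described downstream of Notch3 in vessel walls, had the largest change of the 10 genes. It read -2.26, -2.51 and -2.39 in hetero and 1.17, 0.98 and 1.11 in knockout spheres (NM_013905), on intensities of 70.9 to 86.0 against 963 to 1044. The groups stood far apart, with a change of 3.47 ± 0.08, or 11.1-fold (limma adjusted p = 2.1e-06), and 0.764% of all genes had a larger rise. With normexp it was 2.63 ± 0.07. Hey1 read -0.32, -0.18 and -0.14 in hetero and 1.19, 1.30 and 1.28 in knockout spheres (NM_010423), a change of 1.47 ± 0.06, or 2.78-fold (limma adjusted p = 1.5e-05). Hes1, the most widely used readout of Notch activity and a target of other pathways too, moved least. It read -1.70, -1.59 and -1.44 in hetero and -1.12, -1.22 and -1.16 in knockout spheres (NM_008235). The groups did not overlap, but the change was only 0.41 ± 0.07, or 1.33-fold (limma adjusted p = 0.00562).

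**Figure D4:**
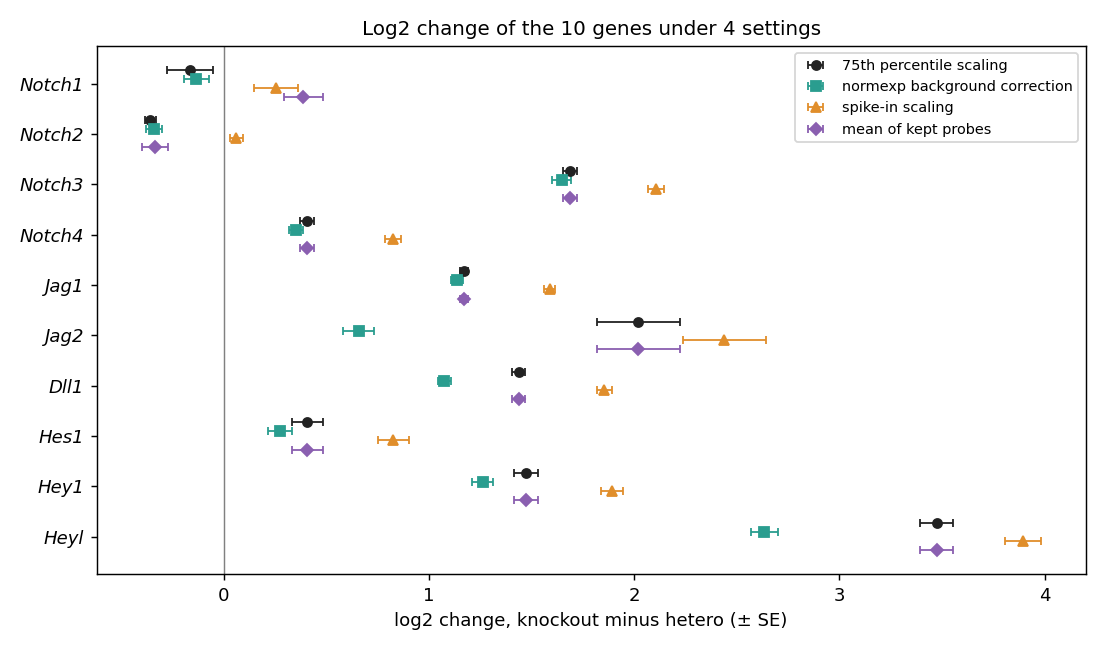
Log2 change (knockout minus hetero) with its SE for each of the 10 genes with 75th percentile scaling, normexp background correction, spike-in scaling and the mean of a gene's kept probes. Notch1 and Notch2 change sign between settings, the other 8 genes stay above 0 in all 4, and Jag2 ranges from 0.66 to 2.44.

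Differences between 2 genes on the same array are free of the array's scaling, so the change of that difference shows whether members of a class moved unequally. Within the 3 classes 12 pairs were compared by a two-sided exact permutation test, which with 3 arrays against 3 cannot go below p = 0.1. In 11 of the 12 pairs the arrays of the 2 genotypes were fully separate (exact p = 0.1, adjusted over the pairs 0.109), and none could pass 0.05 in this design. Notch3 gained 2.05 ± 0.02 log2 units on Notch2 and 1.28 ± 0.05 on Notch4. Heyl gained 2.00 ± 0.15 on Hey1 and 3.07 ± 0.13 on Hes1, and Hey1 gained 1.07 ± 0.07 on Hes1. Dll1 gained 0.27 ± 0.04 on Jag1, an order that turned with normexp. The changes of Notch1 and Notch2 differed by 0.19 ± 0.15 (exact p = 0.3, adjusted over the pairs 0.3), within the spread between arrays for the brighter Notch1 probe.

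The other genes of the pathway went both ways. Of 66 listed genes 63 were on the array under their accession and 59 were tested, of which 16 were higher, 27 lower and 16 not called, with a median log2 change of -0.07. That split follows the scaling: with each array centred on its median 14 were higher and 16 lower, and with spike-in scaling 49 and 4. Rbpj, the DNA-binding partner of all Notch receptors, changed by -0.21 ± 0.04 (limma adjusted p = 0.00428). In the nuclear complex and its co-repressors 1 of 12 rose and 7 fell, all by under 0.25 log2 units, but with median scaling 1 fell and with spike-in scaling 0 fell and 12 rose. Its values included the Mastermind co-activators Maml3 and Maml1 at -0.23 ± 0.04 and -0.22 ± 0.04. Of 8 genes for receptor cleavage, 1 rose and 4 fell; 2 rose without hetero replicate 1, 0 with median scaling, and 6 rose and 1 fell with spike-in scaling. Among these the ADAM protease Adam17 fell by 0.58 ± 0.04, and the gamma-secretase subunits Aph1b and Psen2 fell by 0.37 ± 0.05 and 0.24 ± 0.02. The changes named in these lists, apart from that of Adam17, are smaller than the 0.42 by which spike-in scaling moves every gene.

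Genes that tune ligand and receptor held both rises and falls. Of these, Lfng and Neurl1a rose by more than any gene of the nuclear and cleavage lists. Lfng, the Fringe glycosyltransferase that favours Delta-like over Jagged binding, read -4.43 ± 0.13 in hetero and -3.27 ± 0.13 in knockout spheres (SD, n = 3 each), a rise of 1.16 ± 0.09 (limma adjusted p = 0.00023); with normexp it was 0.27. The 4 other glycosylation genes held 3 falls, with Pofut1 and Poglut1, which add the first sugars to Notch, at -0.26 ± 0.02 and -0.18 ± 0.03. These falls depended on the scaling: with median scaling 1 glycosylation gene was called lower, and with spike-in scaling 0 were lower and 5 higher. Of 4 ubiquitin ligases that ready ligands for endocytosis, 2 rose and 1 fell: Neurl1a by 1.26 ± 0.02, Mib1 by 0.36 ± 0.04 and Mib2 by -0.16 ± 0.03. With spike-in scaling all 4 were called higher. Among 5 tested genes for other ligands and ligand-like proteins 1 rose and 3 fell (2 and 2 with spike-in scaling). Dlk1, a non-canonical ligand that lacks the domain for receptor activation, was 9.29-fold lower, from 2.00 ± 0.05 to -1.21 ± 0.08 (SD, n = 3 each, limma adjusted p = 6.04e-07). The matrix protein gene Ccn3, listed under its older name Nov, fell by 0.57 ± 0.04 and Dll3 by 0.31 ± 0.06, while Dll4, the Delta-like ligand of endothelium, read -3.26 and -3.21 (limma adjusted p = 0.335).

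Negative regulators went both ways, with 3 of 11 higher and 5 lower (9 and 1 with spike-in scaling). One of the 3, Nrarp, a direct Notch target that limits the nuclear complex, passed the filter through the knockout arrays alone, so that its call is no support for a rise. It was well above background on 0 of 3 hetero arrays, at -7.13, -6.39 and -6.90, and on 3 of 3 knockout arrays, at -3.93, -4.10 and -4.64; with normexp its log2 change was 0.19. Dtx1, a Deltex ubiquitin ligase and Notch target, rose by 0.91 ± 0.12, or 0.11 with normexp, and Dtx4 fell by 0.55 ± 0.03. Numb, which directs Notch to endocytosis, changed by 0.11 ± 0.06 (limma adjusted p = 0.168). Of the other HES, HEY and related factors, 5 were tested, 3 higher and 1 lower (4 and 0 with spike-in scaling). Bhlhe41 rose by 2.03 ± 0.03 and Bhlhe40 by 0.19 ± 0.02, both repressors of the DEC type, and Hes7 fell by 0.22 ± 0.03. Hey2 was well above background on 0 of 6 arrays and Hes5 on 1, so neither was tested. Among 9 partners of HES and HEY proteins 4 rose and 3 fell (7 and 0 with spike-in scaling). Id4, an inhibitor of helix-loop-helix factors, rose by 3.12 ± 0.06, the Groucho co-repressor Tle1 by 0.71 ± 0.05 and Id1 by 0.70 ± 0.03.

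**Figure D5:**
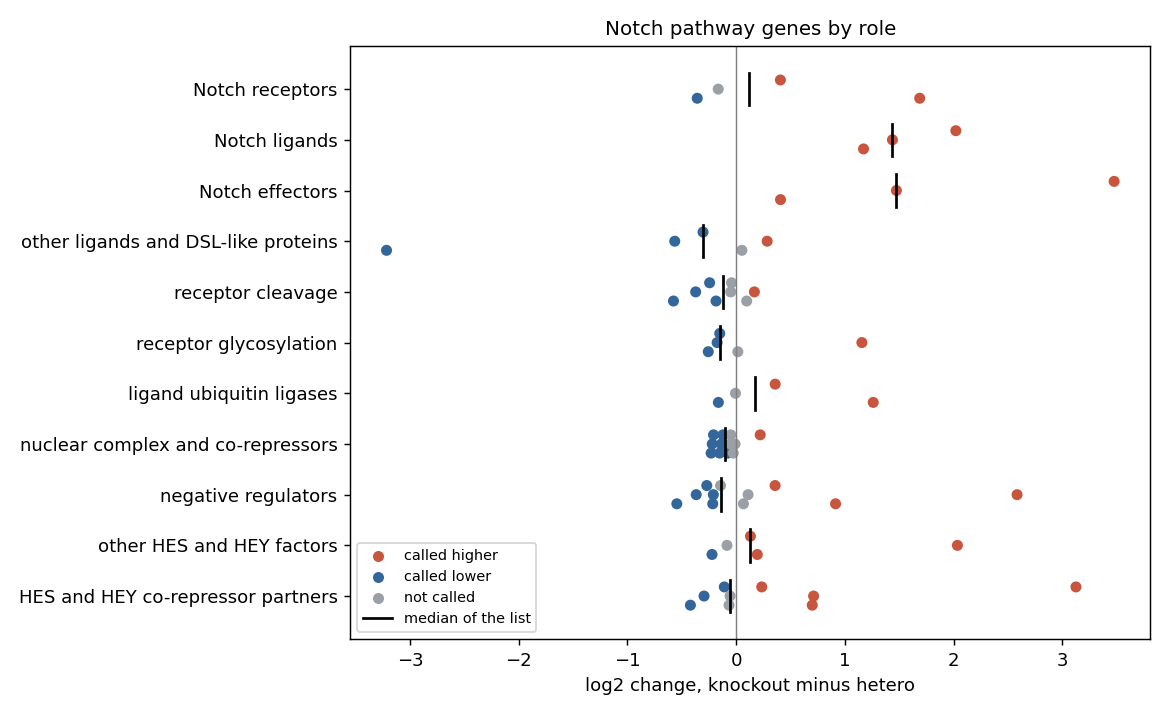
Log2 change (knockout minus hetero) of each tested Notch pathway gene by role; red was called higher, blue lower and grey not called at adjusted p 0.05, and the black bar is the list's median. The ligand and effector medians are 1.44 and 1.47, while those of the 8 lists of other pathway genes lie between -0.31 and 0.18.

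Markers of several cell types moved alongside. The summed signals below weigh the brightest probes of a list most, so they do not measure cell number and are not compared between lists. All 10 luminal epithelial markers rose, with a median log2 change of 3.49 and a summed signal, relative to the 75th percentile, of 11.99 to 12.37 on the hetero and 131 to 134 on the knockout arrays. Krt8 and Krt18, luminal keratins, rose by 3.25 ± 0.02 and 3.44 ± 0.03. Heyl changed by about as much as these markers, and the other 9 genes by less. With normexp Heyl was at 2.63, below the luminal median of 3.14. Of 8 basal markers 6 rose and 1 fell (median 1.85, summed signal 21.4 to 21.6 and 94.5 to 94.9), among them Krt5 by 2.45 ± 0.02 and Krt14 by 2.97 ± 0.02. Of 6 tested mural cell markers, which matter here because Notch3 and Heyl are known from vessel walls, 4 rose, or 2 without hetero replicate 1, hetero replicate 2 or knockout replicate 3 and with median scaling (median 0.11, summed signal 49.9 to 51.6 and 63.1 to 65.3). Among these Cspg4 rose by 1.74 ± 0.03, and Rgs5 changed by -0.02 ± 0.45. Rgs5 was dim, with means of -4.96 and -4.98, and was well above background on 1 of 3 hetero arrays, so its change is poorly measured. Of 8 tested endothelial markers 3 rose and 3 fell (median -0.04, summed signal 23.9 to 24.7 and 21.1 to 22.3), with Pecam1 at -0.16 ± 0.04 and Cdh5 at 0.08 ± 0.04. With spike-in scaling 6 endothelial markers rose and 0 fell. All 8 tested macrophage markers fell, or 7 with spike-in scaling (median -1.67, summed signal 12.7 to 13.0 and 5.26 to 5.40), with Adgre1 at -2.48 ± 0.03 and Csf1r at -0.85 ± 0.03. Of 8 fibroblast markers 7 fell (median -0.61, summed signal 2186 to 2409 and 1640 to 1699), with Pdgfra at -1.32 ± 0.03 and Col1a1 at -0.16 ± 0.03. With spike-in scaling 5 fibroblast markers fell and 1 rose. Lymphocyte markers were mostly dim, with 5 of 8 not above background on any hetero array and 3 on any knockout array. Of the 4 tested 1 was called higher and 1 lower (2 lower without hetero replicate 2 or knockout replicate 2). With spike-in scaling 2 were higher and 0 lower. Their median was -0.20 and their summed signal 8.34 to 9.85 and 6.93 to 7.86. Cd3e changed by -0.56 ± 0.07 and Cd4 by -0.02 ± 0.12. The one called higher with 75th percentile scaling was Ms4a1, a B cell marker named here after its values were seen. It was well above background on 0 of 3 hetero and 3 of 3 knockout arrays, with means of -6.98 and -3.12 and a log2 change of 0.62 with normexp, and it passed the filter through the knockout arrays alone. The part of these cell types in the changes of the Notch genes was not tested.

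Some of the genes share a chromosome. Notch3, Notch4 and Dll1 lie on chromosome 17, as does Frs3, and the other 7 lie on other chromosomes. On that chromosome 60.8% of 799 tested genes were called and 26.5% were higher, against 60.4% and 27.9% of the 15039 on other chromosomes. These shares cover the whole chromosome, and the distance of a gene from Frs3 was not tested. The Frs3 probe was well above background on 1 of 3 hetero and 0 of 3 knockout arrays, so it does not check the genotype labels, and its place relative to the deletion is not known here.

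Promoter sequences of 7 of the 10 genes were matched in RefSeq's table on GRCm38.p6, 8 promoters with both starts of Dll1. The effectors Hes1, Hey1 and Heyl had none there, so the motif counts below cover receptors and ligands only. Those of Notch2 and Notch3, the receptors that moved in opposite directions, and of Jag1, the ligand with the smallest spread between arrays, are given as the 250 bases before the start, 5′ to 3′ on the gene's strand. Capitals mark letters of an N-box (CACNAG), the site type bound by HES repressors, or of a GC box (GGGCGG), on either strand. The regions are chr3:98013288-98013537 on the plus strand for Notch2, chr17:32166891-32167140 on the minus strand for Notch3 and chr2:137116521-137116770 on the minus strand for Jag1.
Notch2: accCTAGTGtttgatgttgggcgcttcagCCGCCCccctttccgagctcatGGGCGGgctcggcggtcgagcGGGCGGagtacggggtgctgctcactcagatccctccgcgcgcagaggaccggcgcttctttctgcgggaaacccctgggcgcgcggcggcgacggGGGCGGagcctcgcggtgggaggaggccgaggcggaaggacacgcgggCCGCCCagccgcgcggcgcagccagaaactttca
Notch3: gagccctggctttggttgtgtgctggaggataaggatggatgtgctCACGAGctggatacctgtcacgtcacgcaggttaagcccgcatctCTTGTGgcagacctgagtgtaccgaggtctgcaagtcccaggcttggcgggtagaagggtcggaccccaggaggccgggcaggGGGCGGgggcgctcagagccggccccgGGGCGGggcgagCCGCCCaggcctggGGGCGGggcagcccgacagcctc
Jag1: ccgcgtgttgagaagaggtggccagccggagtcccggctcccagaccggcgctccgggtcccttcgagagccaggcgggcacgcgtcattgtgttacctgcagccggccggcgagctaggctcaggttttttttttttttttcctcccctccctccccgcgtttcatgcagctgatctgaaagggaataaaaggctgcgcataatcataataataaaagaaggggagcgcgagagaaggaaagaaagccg
The Notch3 promoter held 2 N-boxes and 4 GC boxes, that of Notch2 held 1 and 5, and that of Jag1 held neither. An N-box was present in 3 of the 8 promoters and in 36.7% of all 32851 promoters in the table, and a GC box in 4 of 8 and in 32.7%. The RBPJ core TGGGAA, the E-box CACGTG and the letters TATAAA were in 0 of the 8, and in 21.6%, 6.02% and 12.4% of all promoters. Motifs were searched on both strands and may overlap one another. The 8 promoters had a GC content of 56.0 to 87.2%, against a median of 52.4% over all promoters, and the shares were not adjusted for this. Notch2 and Notch3 both carried the 2 kinds of letters in this window, and a match or its lack says nothing of binding.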

How the data were processed

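Total RNA was labelled with Cy3 and hybridised to 6 Agilent arrays, 1 per sample. Per the submitters' processing notes, the authors used Feature Extraction 10.7.3.1 from Agilent for quantification. The deposited files hold linear spot intensity values with background and spatial trend removed, per the file headers, and no scaling between arrays. A deposited table of 46598 probes holds the same intensity divided by 1 constant per array. Control spots (3671 per array) and outlier spots (102 to 129) were dropped, spots of a probe averaged in log2, and the 75th percentile of each array subtracted. Probes well above background on at least 3 of 6 arrays were kept, and the brightest stood for its gene. Probes were named through their RefSeq accession. Genotypes were compared with limma 3.58.1 (lmFit, eBayes) in R 4.3.3 without covariates, with Benjamini-Hochberg adjustment over all genes; the fit was tested on simulated data. Normexp used the median spot and background signals.

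The number of arrays limits the precision. The 6 arrays shared 1 slide and 1 scan run; each of the 4 slide columns held 1 genotype, so column and genotype cannot be told apart. Arrays correlated across genes at 0.995 to 0.998 within and 0.966 to 0.971 between genotypes. Replicate numbers came from the labels and did not pair the samples (correlations of deviations -0.115, -0.018 and -0.006 for equal numbers). The genes and lists were chosen with earlier results of these data known. Named genes were the 10 members, Frs3, Dll3, Dll4, Rbpj, Lfng, Numb, Nrarp, Hes5 and Hey2, the 3 called genes with the largest change in every other pathway list and the first 2 tested genes of each marker list. In the nuclear list 1 gene that this rule names is not reported here. Alternatives were quantile, median and spike-in scaling, normexp with an offset of 50, other filters, averaged probes, replicate and slide row blocks, an intensity trend, each array left out and the deposited table.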

Additional observations from a re-analysis of the deposited data

How the results depend on the processing

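The 8 rises kept their direction and call wherever the gene was tested; Jag2 was lost to the filter when all 6 arrays had to be above background. Notch1 and Notch2 turned with spike-in scaling (0.25 and 0.0601), as did Notch1 with averaged probes (0.39), where Notch1 was called higher. Without hetero replicate 1 Notch1 was called lower, so that leaving out 1 array gave -0.28 to -0.10 for Notch1 and 1 to 2 members called lower. With spike-in scaling limma called 0 members lower, also at an unadjusted p of 0.05, 49 other pathway genes higher and 4 lower, and 11490 genes higher and 1260 lower. With median scaling 16 other pathway genes were called lower. The change of a difference within an array moved with normexp for Notch2 less Notch3 (-1.99), Notch2 less Notch4 (-0.69), Hes1 less Heyl (-2.36) and Hey1 less Heyl (-1.37). It turned with normexp for Jag1 less Jag2 (0.48), Jag1 less Dll1 (0.0637) and Jag2 less Dll1 (-0.42). With averaged probes Notch1 less Notch2, Notch3 and Notch4 gave 0.72, -1.30 and -0.0187. The cause of these shifts was not tested, except that spike-in scaling adds a constant and averaging brings in the dimmer Notch1 probe. The numbers share no pairing; with the replicate block 3932 genes were called higher and 4579 lower, 8 members higher and 1 lower, and no member's call changed. Signal over background limits Jag2, Nrarp, Rgs5, Ms4a1 and the dimmer Notch1 probe.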
